A study of Mus musculus with 24 samples.

Results

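The middle of a 4-thiouridine chase, from 1 to 3 h after the label was withdrawn, was described in control preleukemic mouse cells by comparing the 3 libraries collected at 180 min with the 3 collected at 60 min. These 6 libraries were chosen by genotype and chase time from the titles, out of 24 in the series. All of the cells had been transformed with Meis1 and Hoxa9 (the labels write the treatment as Hox9/Meis1), and per the study's methods the starting material was c-Kit+ fetal liver cells of C57BL/6 mice at E14.5 that received both genes by retrovirus. The other 12 libraries carry a conditional deletion of Tut4 and Tut7 driven by Vav-iCre, called cDKO, and their 60 and 180 min libraries were used here only for the comparison between genotypes. Cells of both genotypes grew in medium with SCF, IL-6 and IL-3, took up 4-thiouridine (4SU) at 2.9 µM during a labelling of 12 h, and were moved to 4SU-free medium for the chase. The study's methods call the libraries of both genotypes biological triplicates. The labels give chase time as the batch, so chase time and batch cannot be told apart in any comparison of 180 with 60 min.

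In SLAM-seq, 4SU is built into RNA in place of uridine and is alkylated after extraction, so that reverse transcription reads it as C. The share of T positions in 3′UTR reads that are read as C, the T-to-C conversion rate, therefore measures how much of a transcript was made during the labelling. During the chase the rate falls as labelled molecules are degraded and also as unlabelled molecules are made, while the read count of a gene reports its total abundance relative to the other genes of the library. Short-lived mRNAs in mammalian cells typically encode transcription factors, signalling feedback proteins and cell cycle regulators, and long-lived mRNAs typically encode ribosomal, mitochondrial and other housekeeping proteins.

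Each of the 6 libraries held 4875817 to 5532672 reads in 3′UTRs, covering 100656225 to 114711475 T positions, and 9.83% to 9.93% of those reads mapped to more than 1 place. Replicates of a time differed by more than sampling noise (chi-square per degree of freedom of 3.39 to 4.27), so none was a repeat deposit. Transcripts of the cell's own lineage were plentiful, with the 12 progenitor markers summing to between 12400 and 13170 CPM over the 6 libraries (CPM gives the 3′UTR reads of a gene scaled to a fixed total per library). Meis1 was the only one of them without a read in any of the 6 libraries, and its transgene need not carry the annotated 3′UTR. Hoxa9 gave 2351, 2294 and 2495 CPM at 60 min and 2770, 2561 and 2369 CPM at 180 min. It is part of the progenitor sum and was also introduced by retrovirus. Reads of its transgene and of the endogenous gene were not told apart. Markers of other lineages gave far fewer reads. Of 16 lymphoid markers listed, the 13 with a 3′UTR interval summed to 3.01 to 4.96 CPM, with Cd3e and Rag1 among the 9 at 0. The 11 mast cell and basophil markers summed to 22.4 to 35.2 CPM, with Fcer1a and Cpa3 at 0. The 15 macrophage and dendritic cell markers summed to 89.2 to 127 CPM, the 10 megakaryocyte markers to 14.7 to 23.9 CPM, and the 13 erythroid markers to 225 to 265 CPM, with Epor and Alas2 among the 8 at 0. Few markers of these other lineages could be tested for abundance between 60 and 180 min. They were 2 erythroid, 3 mast cell and basophil, 5 macrophage and dendritic cell, 1 lymphoid and 2 megakaryocyte markers. None was called, where 2.27% of all tested genes were higher and 2.15% lower. Of 11 tested progenitor markers 2 were lower, Myb (log2 -0.20) and Ms4a3 (-0.15), and none higher. These calls were lost under 4 and 8 of the alternatives.

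Label was lost from the transcriptome as a whole in the 2 h between the collections. The library-wide conversion rate was 1.49%, 1.52% and 1.45% in the libraries at 60 min and 1.06%, 1.12% and 1.05% at 180 min. The 2 times did not overlap, and the mean of 1.08% ± 0.0358 (SD, n = 3) at 180 min was 72.5% of the 1.49% ± 0.0332 (SD, n = 3) at 60 min. The two-sided exact permutation test gave p = 0.1, the smallest value that 3 libraries against 3 can give, and the Benjamini-Hochberg adjusted value over the 3 library-wide measures was also 0.1. The share of reads with at least 1 conversion went from 25.8% ± 0.524 (SD, n = 3) to 19.3% ± 0.551 (SD, n = 3), which was 74.7% of its earlier level. The median rate over genes, in which every gene counts alike, went from 1.57% ± 0.0332 (SD, n = 3) to 0.973% ± 0.0379 (SD, n = 3), or 62.1% of its earlier level. Written as a half-life over these 2 h only, the library-wide fall corresponded to 259 min. The same measure gave 421 min from 0 to 60 min and 203 min from 180 to 540 min in controls, so no single half-life describes the chase. The control libraries at the ends of the chase, 1.64% ± 0.0261 (SD, n = 3) at 0 min and 0.314% ± 0.0133 (SD, n = 3) at 540 min, place the window in the course of the whole chase.

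**Figure D1:**
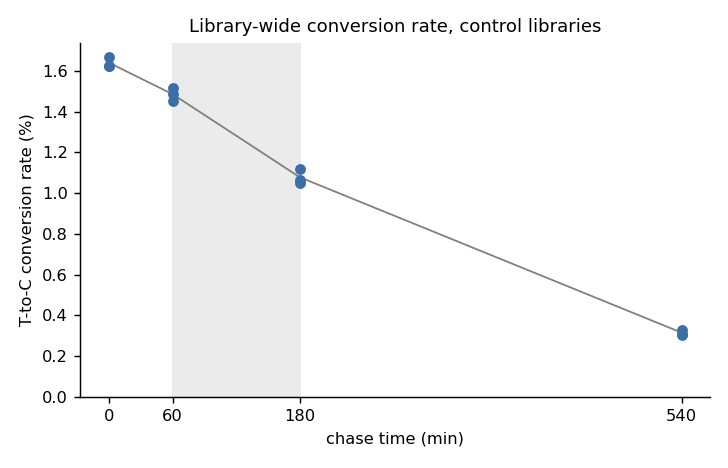
Library-wide T-to-C conversion rate (percent of T positions in 3′UTR reads) of the 12 control libraries against chase time in min, with 1 point per library and a line through the means. The shaded window runs from 60 to 180 min, over which the mean falls from 1.49% to 1.08% with no overlap between libraries.

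Most genes lost label over the window, and the size of the loss varied widely between them. Of 8558 genes with at least 100 covered T positions in every library and at least 50 conversions over the 6 libraries, 8022 had a lower mean rate at 180 min than at 60 min. The fall passed the test in 4470 genes, 52.2% of those tested (edgeR's quasi-likelihood test with coverage as the offset, adjusted p at or under 0.05). Across all tested genes the median log2 ratio of the rates was -0.67, so that 62.8% of the 60 min rate was left. The 5th percentile of the log2 ratios was -1.97, with 25.5% left, and the 95th percentile was 0.04. A rise in rate passed the test in 4 genes, 0.0467%, among them Rpl14, which was named after its values were seen. Rpl14, a protein of the large ribosomal subunit, had rates of 2.77%, 2.24% and 2.36% at 60 min and 2.44%, 3.1% and 2.9% at 180 min, which overlap, and it still stood at 2.99% at 540 min. A rate at 540 min that was not below that at 60 min was found in 15 of the 8558 genes. Whether all of the signal in such genes is 4SU label was not tested.

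The same counts were then tested against the library, by adding the library-wide rate to the offset, so that a gene is called only if it lost label faster or slower than the library as a whole. By this measure 2061 genes (24.1%) lost label faster and 746 genes (8.72%) slower, with a median log2 value of -0.21 over all tested genes. The split between the directions depended on the centre. With the median gene rate as the centre, 1345 genes were faster and 1610 slower, so that faster genes made up 45.5% of the calls in place of 73.4%. Genes called slower were abundant, with a median of 316 CPM against 47.2 CPM over all tested genes, and kept a median of 94.2% of their rate. The library-wide log2 ratio was -0.46, and a gene with no fall in rate stands above the library by no more than that. Differences this small pass the test more readily at deep coverage, so the abundance of slower genes cannot be told apart from the power of the test. Genes called faster had a median of 53 CPM and kept 34.8% of their rate, from a median of 1.69% at 60 min to 0.568% at 180 min.

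The gene lists lay far apart in label loss, with regulators at one end and housekeeping machinery at the other. Counts per list are to be read against the 24.1% faster and 8.72% slower of all tested genes. Among p53 targets, which carry out cell cycle arrest and apoptosis after DNA damage, 16 of 26 tested genes lost label faster and 1 slower, with a median log2 ratio of the rates of -1.51 against -0.67 over all genes. Among transcription factors of blood cell formation 16 of 23 were faster and none slower, with a median of -1.47. Immediate early and feedback genes, which respond first to growth factor signals, had 14 of 30 faster and none slower, with a median of -1.16. Regulators of the Bcl2 family, which set the threshold of apoptosis, had 6 of 11 faster and 1 slower (median -1.30). Chemokines, cytokines and their receptors had 9 of 20 faster and 1 slower (median -1.11), and interferon response genes 6 of 18 faster and none slower (median -1.10). Mitosis genes (17 of 37 faster, 1 slower, median -0.99) and the mRNA decay machinery itself (26 of 63 faster, 6 slower, median -0.86) followed.

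At the other end, label was largely retained. Counts of slower genes in lists of abundant transcripts carry the limit of coverage given above. Among oxidative phosphorylation genes, which encode subunits of the respiratory chain, 44 of 74 were slower and none faster, with a median log2 ratio of the rates of -0.07. Among ribosomal protein genes 49 of 69 were slower and none faster, with a median of -0.09. Ribosomal protein genes have many near-identical processed copies, so their counts are uncertain where reads could be placed on a copy. Neutrophil granule and maturation genes had 7 of 18 slower and none faster (median -0.15), glycolysis genes 8 of 19 slower and 1 faster (median -0.16), proteasome subunits 14 of 38 slower and 2 faster (median -0.21), and heat shock and chaperone genes 12 of 30 slower and 2 faster (median -0.28). Between these ends lay DNA replication initiation (10 of 35 faster, 4 slower, median -0.75), cholesterol synthesis and uptake (7 of 33 faster, 4 slower, median -0.53), the amino acid stress response that ATF4 controls (8 of 30 faster, 4 slower, median -0.48) and splicing factors (10 of 49 faster, 15 slower, median -0.39). Measured against the library-wide rate the list medians of cholesterol genes and of the ATF4 list were -0.07 and -0.02, and with the median gene rate as the centre they turned to 0.16 and 0.20, so neither list has a direction of its own. With that centre 15.7% of all tested genes were faster and 18.8% slower. The counts of faster and slower genes then were 16 and 1 of 23 for blood cell transcription factors, 12 and 4 of 26 for p53 targets, 8 and 0 of 30 for immediate early and feedback genes, 6 and 0 of 18 for interferon response genes, 12 and 5 of 37 for mitosis genes and 0 and 68 of 74 for oxidative phosphorylation. They were 5 and 3 of 11 for the Bcl2 family and 15 and 8 of 63 for the mRNA decay machinery. For DNA replication initiation they turned to 4 and 8 of 35.

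**Figure D2:**
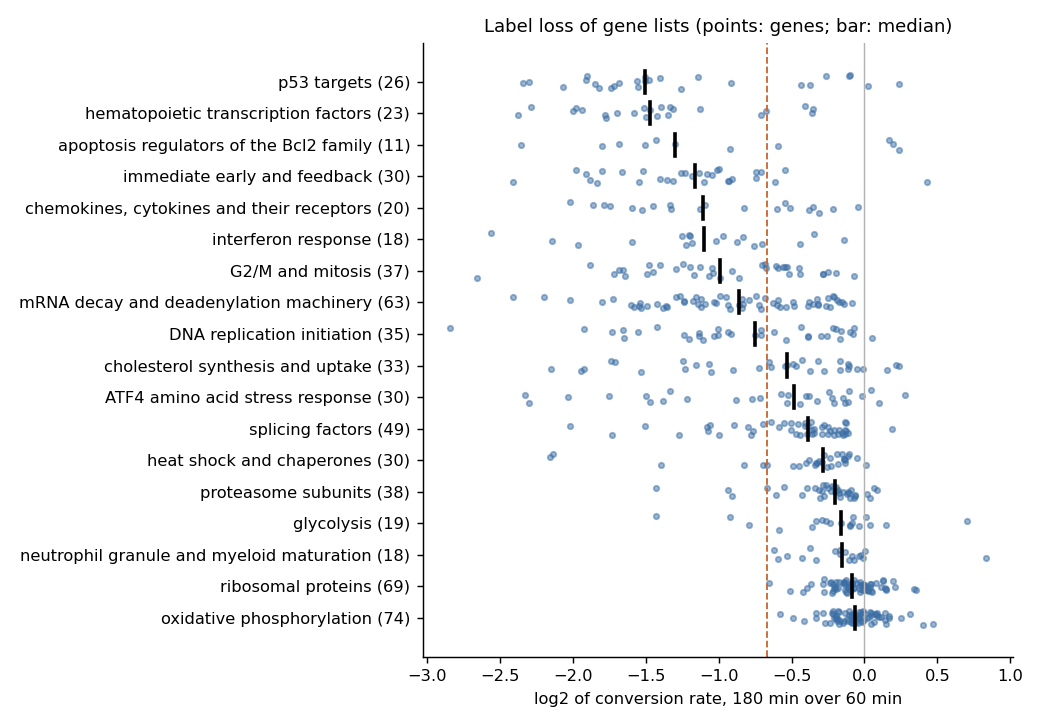
The log2 ratio of the conversion rate at 180 min over that at 60 min for each tested gene of 18 lists, with the number of genes in parentheses. Each point is a gene and each black bar a list median, the dashed line is the median of all tested genes (-0.67), and the grey line marks no change. List medians run from -1.51 for p53 targets to -0.07 for oxidative phosphorylation.

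Among the blood cell transcription factors, the 3 called genes with the largest relative loss were Gfi1, Cebpa and Irf8. Gfi1, a repressor needed for granulocyte formation, had rates of 1.42%, 1.21% and 1.35% at 60 min and 0.287%, 0.24% and 0.24% at 180 min. Its log2 ratio was -2.38 (SE 0.19), and relative to the library -1.91 (edgeR adjusted p = 6.7e-10). Cebpa, which drives myeloid commitment, went from 1.7%, 1.62% and 1.24% to 0.338%, 0.402% and 0.201%, a relative log2 value of -1.83 (SE 0.22). Irf8, a factor of the monocyte branch, went from 1.51%, 1.63% and 2.02% to 0.472%, 0.463% and 0.355%, a relative value of -1.54 (SE 0.16). For each of these genes the 3 libraries at 180 min were all below the 3 at 60 min. Myb, which keeps progenitors proliferating, was measured far more deeply, over at least 67162 T positions per library, and went from 1.7%, 1.86% and 1.57% to 0.585%, 0.669% and 0.549% (relative log2 -1.05, SE 0.07).

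In the lists of feedback genes and of the Bcl2 family, the members with the largest called loss included Mcl1 and Zfp36l2. Mcl1, an inhibitor of apoptosis, had rates of 1.27%, 1.2% and 1.31% at 60 min and 0.396%, 0.364% and 0.325% at 180 min, a relative log2 value of -1.34 (SE 0.12, edgeR adjusted p = 2.26e-10). Zfp36l2, which binds AU-rich elements and recruits the deadenylation machinery, went from 1.05%, 1.16% and 0.984% to 0.232%, 0.287% and 0.0829% (relative log2 -1.95, SE 0.29). Bcl2l1, another inhibitor of apoptosis, had a relative value of -1.90 (SE 0.45), and the sensitizers Bbc3 and Pmaip1 had -1.21 (SE 0.34) and -1.04 (SE 0.26). Among the p53 targets Phlda3 fell from 2.38%, 2.4% and 1.97% to 0.275%, 0.397% and 0.628%, a relative value of -1.88 (SE 0.37). In the list of chemokines, cytokines and their receptors, the largest called relative log2 values were -1.56 (SE 0.36) for the chemokine receptor Ccr1, -1.33 (SE 0.19) for Tnfrsf1b and -1.28 (SE 0.21) for Tnfrsf1a.

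Fast loss was also measured in genes of mitosis and of replication. Anln, an actin-binding protein of the cleavage furrow, went from 1.6%, 1.35% and 2.33% to 0.257%, 0.228% and 0.338%, with a relative log2 value of -2.20 (SE 0.33). Cdc6, which loads the replicative helicase onto origins, went from 1.42%, 0.99% and 1.24% to 0.173%, 0.257% and 0.0743%, a relative value of -2.39 (SE 0.43). The phosphatase gene Cdc25a had -1.46 (SE 0.21). Each of the 3 had libraries at 180 min that lay wholly below those at 60 min. In the list of splicing factors the kinase genes Clk2 (-1.56, SE 0.25) and Clk4 (-1.26, SE 0.27) were faster than the library, although the list as a whole held more slower than faster genes.

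Genes of sterol uptake and synthesis included both kinds. Hmgcs1, an enzyme of the mevalonate pathway, had rates of 1.64%, 1.62% and 1.49% at 60 min and 0.423%, 0.44% and 0.368% at 180 min, which did not overlap, with a relative log2 value of -1.48 (SE 0.17, edgeR adjusted p = 2.55e-08). Of the other genes that the study names, the sterol synthesis genes Cyp51, Fdps and Fdft1 did not pass the test. Cyp51 had a relative value of 0.09 (SE 0.18, edgeR adjusted p = 0.728), Fdps of 0.45 (SE 0.29, edgeR adjusted p = 0.254) and Fdft1 of -0.76 (SE 0.51, edgeR adjusted p = 0.267). Fdft1 rested on as few as 1391 T positions in a library, and its rates of 2.28%, 2.58% and 0.507% at 60 min overlapped with 0.347%, 1.01% and 0.954% at 180 min. Of the rest, Bcl2 was faster than the library (-0.84, SE 0.29, edgeR adjusted p = 0.0246), Ldha slower (0.47, SE 0.08, edgeR adjusted p = 2.88e-05) and Cpt1a not called (-0.16, SE 0.17, edgeR adjusted p = 0.515). The call for Bcl2 was lost under 6 of the alternatives.

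The 10 genes with the fastest loss relative to the library by the naming rule were Ppard, Per2, Mier2, Nrde2, Rbm41, Bsn, Garre1, Fahd1, Ccdc71l and Heg1. Ppard, a nuclear receptor for fatty acids, had rates of 3.12%, 1.22% and 1.75% at 60 min and 0.0838%, 0% and 0% at 180 min. Over the libraries of a time this was 79 conversions in 3962 covered T positions against 1 conversion in 4435, so that 1.13% of the rate was left, with an exact 95% interval from 0.0283% to 6.49% that covers counting error only. Per2, a repressor of the circadian clock, had 94 conversions in 8855 T positions at 60 min and 3 in 5298 at 180 min, or 5.33% left (exact 95% interval 1.08% to 16.1%). The coverage of these genes was thin, and the order among them is within counting error. Ccdc71l had the most counts, 140 conversions in 9565 T positions against 18 in 11248, with 10.9% left (exact 95% interval 6.3% to 17.9%) and a relative log2 value of -2.74 (SE 0.47). Their changes in total abundance were spread on both sides of 0, from a log2 of -0.75 for Heg1 and -0.65 for Per2 to 0.29 for Rbm41 and 0.24 for Ppard, and none of these abundance changes is among the largest described below.

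The 10 slowest were Stard10, Prdx4, Mpeg1, Ppie, Pex7, Gapdh, Sumf2, Lrch4, Ndufs5 and Zdhhc2, and in each of them the mean rate was higher at 180 min than at 60 min. Gapdh, the glycolytic enzyme, had rates of 0.545%, 0.446% and 0.548% at 60 min and 0.992%, 0.889% and 0.643% at 180 min, a relative log2 value of 1.16 (SE 0.36, edgeR adjusted p = 0.0127). Its own ratio of 0.70 (SE 0.36) did not pass the test for a rise, it still stood at 0.581% at 540 min, and its many pseudogene copies make its counts uncertain. Pex7, an import receptor of the peroxisome, had 1.98%, 1.36% and 0.806% against 2.38%, 3.25% and 1.47%, a relative value of 1.19 (SE 0.35). Ndufs5, a subunit of complex I, had 0.387%, 1.09% and 0.953% against 1.05%, 1.37% and 0.964%, a relative value of 0.93 (SE 0.34). The calls for Prdx4, Sumf2, Zdhhc2 and Stard10 were lost under 8, 7, 7 and 6 of the alternatives. Those for Mpeg1 and Ppie were lost under 4 each, that for Ndufs5 under 3, and those for Pex7 and Gapdh under 2 each. Only Lrch4 kept its call under all of them. In Pex7 and Ndufs5 the rates themselves overlapped between the times, and only the rates divided by the library-wide rate did not. Slow genes with deeper coverage gave tighter values near no change. Ctsg, a protease of neutrophil granules, had 1.5%, 1.5% and 1.48% at 60 min and 1.48%, 1.5% and 1.42% at 180 min over at least 246988 T positions, a log2 ratio of -0.03 (SE 0.05). Elane, the neutrophil elastase, gave -0.01 (SE 0.06) and still had a rate of 1.58% at 540 min against 1.77%, 1.66% and 1.63% at 60 min. Whether all of this lasting signal is 4SU label was not tested.

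**Figure D3:**
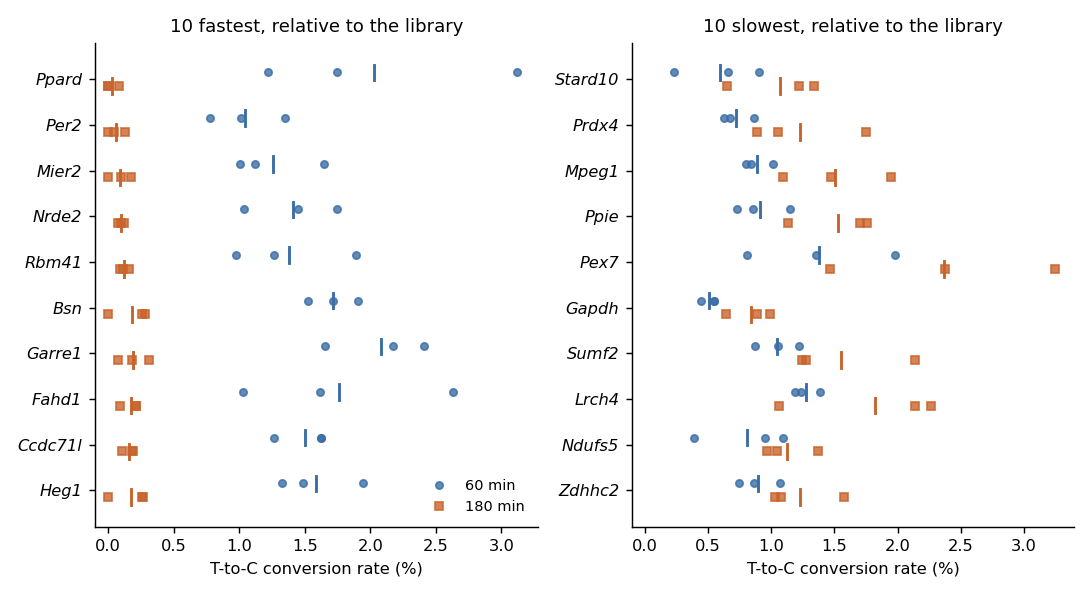
T-to-C conversion rate in percent for the 10 genes that lost label fastest (left) and slowest (right) relative to the library, with 3 circles per gene for 60 min, 3 squares for 180 min and a bar at each mean. No 180 min library of the fast genes lies above 0.314%, and several of the slow genes overlap between times because they were called on the rate divided by the library-wide rate.

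Longer 3′UTR intervals went with larger loss, as a description with no test. Tested genes were split by interval length into 4 groups of like size. In the 2140 genes with the shortest intervals, 13 to 425 bases, the median log2 ratio of the rates was -0.35, and 9.53% were faster and 15.3% slower than the library. In the 2140 with the longest intervals, 1980 bases and more, the median was -0.98, and 37.7% were faster and 3.83% slower. The median log2 change in abundance was -0.01 in the first group and 0.01 in the last. By T content the medians of the log2 ratio ran only from -0.57 in the lowest group to -0.74 in the third.

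Genes from both ends are shown with a sequence element known for its role in mRNA turnover. AU-rich elements in 3′UTRs are bound by proteins such as those of the Zfp36 family. The heptamer TATTTAT was searched on the transcript strand in the last 500 bases of the longest annotated 3′UTR of each gene, using transcripts of GENCODE release M39 (GRCm39) matched by symbol, which need not be the end that was sequenced. Of 7322 tested genes with a 3′UTR of that length, 12.9% held it, as did 15.1% of 1922 genes with faster loss and 10.6% of 568 genes with slower loss. The share among all 16304 annotated 3′UTRs of that length was 13.7%, and no test was made. Windows of 30 bases around it are shown for 2 genes described above with fast loss, for 2 genes whose abundance fell, and for 2 with slow loss, with the heptamer in capitals; they were chosen after their values were seen.
Gfi1: ttagcataatcaTATTTATtagaatgttgt
Irf8: atgttttcccttTATTTATggacaccgatt
Plk3: gggcatTATTTATggaccactttTATTTAT
Spry1: tattgtaaagaaTATTTATtatgcgaatct
Pex7: gcctttgcttgtTATTTATagtttgttttc
Pgk1: gtagagggcgtcTATTTATattctgcctga
The windows begin 58 bases before the end of the 3′UTR in Gfi1, 115 in Irf8, 102 in Plk3, 199 in Spry1, 107 in Pex7 and 199 in Pgk1. Plk3 held 3 copies in the last 500 bases, of which 2 are in its window.

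Total abundance changed in far fewer genes than label did. Of 10043 genes tested, 228 (2.27%) were higher and 216 (2.15%) lower at 180 min than at 60 min (edgeR's quasi-likelihood test, adjusted p at or under 0.05), the median log2 change was 0.00, and 51 of those called changed by at least 1 on the log2 scale. In bulk libraries fewer cells of a kind and less RNA per cell cannot be told apart. Without the first 60 min library the number of called genes fell to 222, without the third to 279 and without the first 180 min library to 287. When all lines of a gene were summed, overlapping isoform intervals included, 262 genes were called.

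Genes that fell included a chemokine, feedback regulators and immediate early transcription factors. Ccl3, an inflammatory chemokine, had the largest fall by the naming rule. Its 3′UTR (chr11:83647843-83648252 on mm10, minus strand) gave 133, 109 and 109 CPM at 60 min and 31.9, 27.6 and 25.8 CPM at 180 min. All libraries at 180 min were below all at 60 min, and the log2 change was -2.04 with an SE of 0.12 (edgeR adjusted p = 3.22e-15). Txnip, an inhibitor of thioredoxin and of glucose uptake (chr3:96560530-96561857 on mm10, plus strand), went from 490, 583 and 443 CPM to 272, 214 and 215 CPM (log2 -1.12, SE 0.08, edgeR adjusted p = 1.99e-12). Its relative Arrdc3, of the same arrestin family, went from 17.8, 30.8 and 24.2 CPM to 9.83, 8.93 and 8.13 CPM (log2 -1.44, SE 0.23). Trib1, a pseudokinase that directs degradation of C/EBP proteins, had 13.6, 19.7 and 11.7 CPM against 4.01, 5.36 and 5.78 CPM (log2 -1.57, SE 0.29). Groups did not overlap in any of them.

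The other 6 of the 10 largest falls were smaller or rested on fewer reads. Trim6, a ubiquitin ligase, changed by -1.38 (SE 0.27), Utp14b, a ribosome biogenesis factor, by -1.23 (SE 0.27), and the zinc exporter Slc30a1 by -1.11 (SE 0.22) on the log2 scale. Klf10, a transcription factor induced by TGF-beta, changed by -1.11 (SE 0.20), the homeobox factor Hlx by -1.08 (SE 0.19) and Polr1b, the second subunit of RNA polymerase I, by -1.02 (SE 0.25). The call for Polr1b was lost under 3 alternatives. Several of the genes that fell were also lower in the control libraries at 0 min than at 60 min. Ccl3 had a mean of 40 CPM at 0 min and 64 CPM at 540 min, Txnip 203 and 248 CPM, Hlx 8.84 and 17.5 CPM, and Arrdc3 8.42 and 9.16 CPM. Slc30a1, with 18.5 CPM at 0 min and 20.3, 24.3 and 22.4 CPM at 60 min, and Polr1b, with 17.4 CPM at 0 min, were closer to their 60 min level.

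Genes that rose included the cell cycle regulators G2e3 and Ccng2. G2e3, a ubiquitin ligase of the G2 phase (chr12:51372723-51376986 on mm10, plus strand), went from 48.5, 57.6 and 57.6 CPM to 112, 117 and 135 CPM (log2 1.15, SE 0.10, edgeR adjusted p = 6.83e-10). Ccng2, an atypical cyclin linked to growth arrest, went from 9.85, 9.59 and 5.95 CPM to 17.2, 20 and 20.2 CPM (log2 1.17, SE 0.24). Acrbp, which binds the protease proacrosin, had the largest rise, from 5.02, 5.43 and 4.51 CPM to 17.2, 18.3 and 15.5 CPM (log2 1.76, SE 0.27). Each of these had 3 libraries at 180 min above all of those at 60 min. Srr, which makes D-serine (log2 1.30, SE 0.25), Nradd (1.25, SE 0.22), Prr5l, a binding partner of the mTORC2 complex (1.09, SE 0.27), Vamp1, a vesicle fusion protein (1.08, SE 0.18), Cdo1, a cysteine dioxygenase (1.07, SE 0.28), the endothelin receptor Ednra (1.00, SE 0.26) and Tespa1 (1.00, SE 0.22) made up the 10. The calls for Ednra, Cdo1 and Prr5l were lost under 6, 3 and 2 alternatives.

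**Figure D4:**
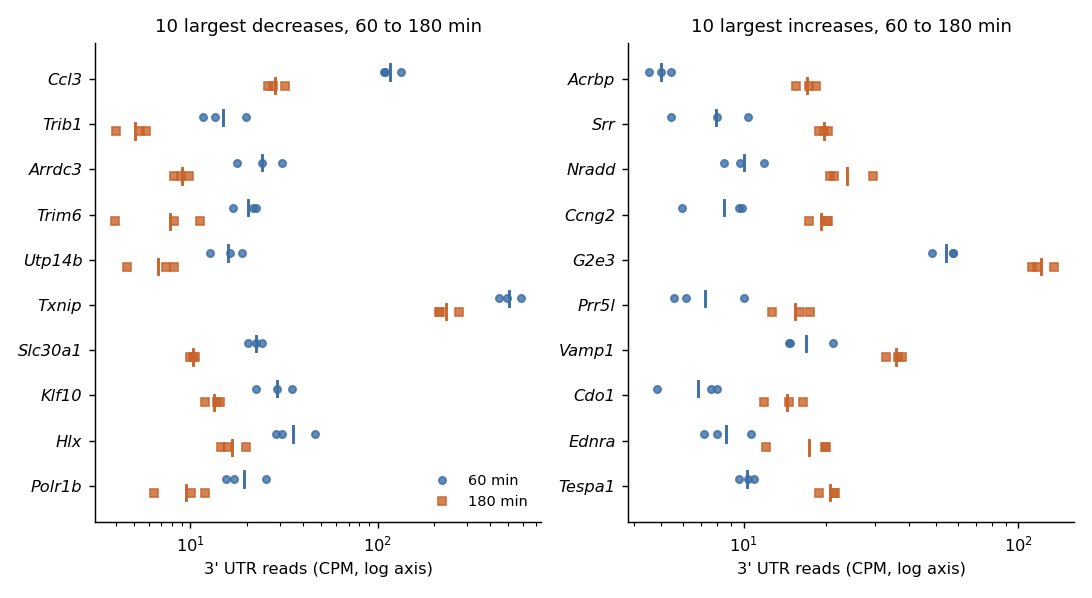
Reads in 3′UTRs in CPM (log axis) for the 10 genes with the largest decreases (left) and the 10 with the largest increases (right) between 60 and 180 min, with 3 circles per gene for 60 min, 3 squares for 180 min and a bar at each mean. Ccl3 falls from between 109 and 133 CPM to between 25.8 and 31.9 CPM, and the times do not overlap in any gene shown, as the naming rule required.

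Among the lists, immediate early and feedback genes had the most falls, 10 of 43 tested genes lower and 1 higher, with a median log2 change in abundance of -0.24 against 0.00 over all genes, where 2.15% were lower. Egr1, an immediate early transcription factor, had 34, 33 and 18 reads at 60 min and 2, 0 and 5 reads at 180 min (log2 -3.51, SE 0.66, edgeR adjusted p = 0.000729). None of its 7 reads at 180 min had a conversion, against 19 of 85 at 60 min. Fosb, a partner in the AP-1 factor, had 17, 33 and 16 reads against 2, 1 and 5, a log2 change of -2.97 (SE 0.66), and 6 of its 8 reads at 180 min had a conversion, against 23 of 66 at 60 min. Counts this low leave the size of both changes loose, but the times did not overlap in either. The kinase gene Plk3 (-1.55, SE 0.36), the Ras pathway inhibitor Spry1 (-1.45, SE 0.34), and, outside the naming rule, Klf2 (-0.90, SE 0.24), Ier2 (-0.68, SE 0.15) and Socs3 (-0.50, SE 0.14) also fell. The calls for Plk3 and Spry1 were lost under 3 and 2 of the alternatives. Socs1, a feedback inhibitor of cytokine signalling, was the member that rose, from 15.8, 22.3 and 14.2 CPM to 31.9, 29 and 33.8 CPM (log2 0.85, SE 0.19).

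Sterol genes fell in part. Of 34 tested members of cholesterol synthesis and uptake, 4 were lower and 1 higher, with a median log2 change of -0.09. Over all tested genes 2.15% were lower and 2.27% higher. Insig1, which retains the sterol sensor in the endoplasmic reticulum, went from 67.3, 67.5 and 68.7 CPM to 40.7, 38.9 and 25.8 CPM (log2 -0.95, SE 0.14, edgeR adjusted p = 1.78e-05). Msmo1 (-0.61, SE 0.12) and Sqle (-0.52, SE 0.12), which act late in synthesis, fell as well. Npc1, which moves cholesterol out of lysosomes, was the member that rose, by 0.33 (SE 0.10). The genes the study names changed less, and none passed the test, with log2 changes of -0.24 (SE 0.11) for Fdps, -0.26 (SE 0.10) for Hmgcs1, -0.34 (SE 0.11) for Cyp51, -0.01 (SE 0.21) for Fdft1, -0.10 (SE 0.06) for Ldha, 0.32 (SE 0.10) for Cpt1a and -0.18 (SE 0.14) for Bcl2.

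Of chaperones, replication genes and some other lists a few members fell by small steps. Their counts are to be read against the 2.15% lower and 2.27% higher of all genes tested for abundance. In the heat shock list 4 of 31 tested genes fell and none rose (median log2 -0.14), with Hsph1 at -0.67 (SE 0.13), Hspa8 at -0.47 (SE 0.06), Hspe1 at -0.28 (SE 0.06) and Hspa5 at -0.27 (SE 0.05). In the list of DNA replication initiation 5 of 35 fell and none rose (median -0.17), with Gins1 at -0.61 (SE 0.17), Cdc25a at -0.43 (SE 0.10), E2f1 at -0.38 (SE 0.11) and Mcm6 at -0.26 (SE 0.06), calls that were lost under 4, 3, 5 and 3 of the alternatives. The Bcl2 family had 3 of 11 lower and none higher (median -0.13), namely Pmaip1 at -0.54 (SE 0.11), Bid at -0.41 (SE 0.11, a call lost under 4 alternatives) and Mcl1 at -0.32 (SE 0.06). The amino acid stress list had 3 of 32 lower and none higher (median -0.02), with Mthfd2 at -0.36 (SE 0.07), Slc3a2 at -0.27 (SE 0.06) and Atf4 at -0.25 (SE 0.06), and glycolysis 2 of 21 lower and none higher (median -0.09), with Pfkl at -0.47 (SE 0.09) and the lactate carrier Slc16a1 at -0.42 (SE 0.07). The call for Atf4 was lost under 2 alternatives. Pmaip1 was also the 1 of 29 p53 targets that was called, and the median of the p53 list was 0.06.

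In the remaining lists few genes moved. Over all tested genes 2.27% were higher and 2.15% lower, and counts such as 1 of 39 or 2 of 78 are near that share. Of mitosis genes 1 of 39 rose, Kif23, a kinesin of cytokinesis, by 0.41 (SE 0.07), with a list median of 0.12. Of interferon response genes 1 of 24 rose, Irf1, a transcription factor of that response, whose 3′UTR (chr11:53776447-53777324 on mm10, plus strand) gave 76.6, 76.6 and 84.7 CPM at 60 min and 131, 135 and 151 CPM at 180 min (log2 0.81, SE 0.09, edgeR adjusted p = 1.62e-07). Blood cell transcription factors had 2 of 29 higher and 3 lower, with Gfi1 at 0.39 (SE 0.09) and Irf8 at 0.36 (SE 0.10) in one direction and Cebpa at -0.42 (SE 0.09) and Egr1 in the other. Chemokine and cytokine genes had 2 of 25 higher, Cxcr4 at 0.41 (SE 0.08) and Il6ra at 0.37 (SE 0.11), and 2 lower, Ccl3 and Csf1 at -1.02 (SE 0.29). The calls for Irf8 and Csf1 were lost under 6 alternatives each, and that for Gfi1 under 3. Of ribosomal protein genes 2 of 78 rose, Rps3 at 0.20 (SE 0.05) and Rpl32 at 0.19 (SE 0.05), calls lost under 3 alternatives each. The granule list had 1 of 20 lower, Ms4a3 at -0.15 (SE 0.05), and this call and that of Il6ra were lost under 8 and 9 alternatives. None of 74 oxidative phosphorylation genes, 38 proteasome genes or 49 splicing genes was called.

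Among the mRNA decay factors, 2 of 70 rose and 1 fell (median log2 change 0.03), near the 2.27% higher and 2.15% lower of all tested genes. Exosc6, a subunit of the exosome that degrades RNA from its 3′ end, fell by 0.53 (SE 0.11) on the log2 scale, and Cnot1, the scaffold of the main deadenylase complex, was at 0.37 (SE 0.10), a call lost under 6 alternatives. The other that rose was Tut7. Tut7 and Tut4 are the terminal uridylyltransferases whose deletion the series studies. Tut4 (3′UTR at chr4:108558786-108559415 on mm10, plus strand) gave 85.7, 91 and 88.6 CPM at 60 min and 77.6, 88.3 and 105 CPM at 180 min, overlapping groups with a log2 change of 0.03 (SE 0.10). Tut7 (chr13:59771879-59772859 on mm10, minus strand) gave 37.7, 45.4 and 45.5 CPM against 61, 66.1 and 50.6 CPM, which do not overlap, and its log2 change of 0.46 had an SE of 0.13 and a call (edgeR adjusted p = 0.0315) that was lost under 5 of the alternatives. Both transcripts lost label faster than the library, Tut7 with rates of 1.41%, 1.22% and 1.7% against 0.251%, 0.405% and 0.271% (relative log2 -1.75, SE 0.32) and Tut4 with 1.73%, 1.46% and 1.74% against 0.507%, 0.622% and 0.517% (relative log2 -1.12, SE 0.18). In the cDKO libraries at the same times Tut4 gave 31.9 to 40 CPM and Tut7 22 to 33.3 CPM, but reads at the 3′ end do not show whether the deleted exons are present.

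Reads with and without a conversion changed differently in the genes that fell and rose. A read without a conversion need not come from an unlabelled molecule. At 0 min, right after the labelling, only 27.4%, 27.9% and 27.4% of reads in the control libraries had a conversion. Over the 216 genes that were lower, the median log2 change was -1.34 in reads with a conversion and -0.21 in reads without one, beside -0.64 and 0.17 over all 10043 genes. Over the 228 that were higher it was -0.57 and 0.78. These medians describe the genes and are no test, because total abundance chose them. In Ccl3 both kinds of read fell, from a mean of 19.2 to 1.75 CPM with a conversion and from 97.7 to 26.7 CPM without. In Txnip they went from 112 to 21.9 CPM and from 393 to 212 CPM. In G2e3 reads with a conversion were almost level, at 12.1 and 11 CPM, while those without went from 42.4 to 110 CPM. Irf1 lost reads with a conversion, from 16.7 to 11.2 CPM, as those without went from 62.6 to 128 CPM, so its conversion rate and its abundance moved in opposite directions.

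**Figure D5:**
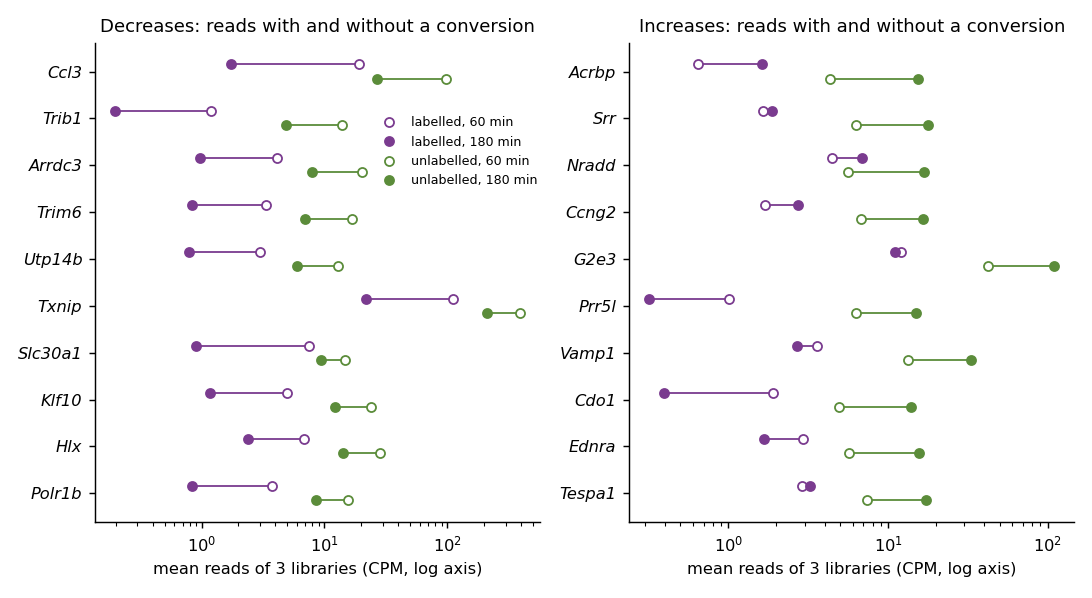
Mean reads of 3 libraries in CPM (log axis) with a T-to-C conversion (purple, marked labelled) and without one (green, marked unlabelled). Points are open for 60 min and filled for 180 min, for the genes with the largest decreases (left) and increases (right) in abundance. Reads without a conversion can also come from labelled molecules. Both kinds of read fall in every gene on the left, and reads without a conversion rise in every gene on the right, for example from 42.4 to 110 CPM in G2e3.

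The cDKO libraries, which share no library with the controls but share the batches by chase time, were put beside these results. They carried less label, with a library-wide rate of 0.692% ± 0.149 (SD, n = 3) at 60 min and 0.502% ± 0.101 (SD, n = 3) at 180 min, and 72.5% of the rate was left in them as in the controls. For label loss, 96.4% of the 1896 control-faster genes that were tested in cDKO cells were also below the library there, against 58.4% of all 7357 genes tested in cDKO cells. Of the 737 control-slower genes 95% were above it, against 41.6% of all. By the test in cDKO cells alone, without a replicate block, 13.6% of those 7357 genes were called faster and 4.91% slower. For abundance, 89.2% of 223 control-higher genes were higher in cDKO cells too, against 49.5% of all, with a median log2 change of 0.27 in cDKO cells and 0.51 in controls. Of 214 control-lower genes 85% were lower, against 50.5% of all, with medians of -0.19 and -0.43. Ccl3 changed by -0.89, Txnip by -0.68, G2e3 by 0.73 and Irf1 by 0.67 on the log2 scale in cDKO cells.

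A smaller median in cDKO cells is not by itself a difference between genotypes, since the genes were chosen for their change in controls. The difference itself was tested as an interaction of genotype and chase time over the 12 libraries. For abundance no gene of 10497 (0%) passed edgeR's quasi-likelihood test without a replicate block, with 470 at an unadjusted p under 0.05. DESeq2 without the block called none either. Same-numbered cDKO libraries deviated together, with correlations of 0.304, 0.688 and 0.689 over 10110 genes, so their numbers mark pairs. With the replicate block within genotype 29 genes were called, 11 with the higher change in cDKO cells and 18 with the lower. The count for abundance thus depends on whether the pairs are used. In the cDKO libraries alone no gene of 10110 (0%) was called for abundance without the block (627 at an unadjusted p under 0.05) and 330 were called with it. For label loss relative to the library 493 of 8919 genes were at an unadjusted p under 0.05 in the edgeR interaction test. After adjustment 1 gene (0.0112%) differed between genotypes, the chemokine receptor Cxcr4. In controls its rate went from 0.884%, 0.772% and 0.79% to 0.467%, 0.327% and 0.323%, and in cDKO cells from 1.83%, 1.65% and 1.51% to 1.52%, 1.66% and 1.52%. The log2 ratios differed by 1.05 (SE 0.19, edgeR adjusted p = 0.0137), and the adjusted p ranged from 0.000281 to 0.765 over the alternatives. In cDKO cells its rate was still 1.33% at 540 min, when their library-wide rate was 0.187%. Whether all of this signal is 4SU label was not tested, and masking of variants is not given.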

How the data were processed

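SLAM-seq libraries (QuantSeq 3′ FWD, 500 ng of RNA, 16 PCR cycles, 85-base single reads) were made by the authors, who ran SlamDunk 0.4.3 on mm10 (GRCm38) with a 3′UTR annotation. Per the file headers, the deposited counts give reads, reads with a conversion, conversions and covered T positions per interval. Aligner settings, filters and masking of variants are not given in the sources used here. Reads carry no molecular identifiers, so counting intervals cover counting error only. Depth was 4875817 to 5532672 3′UTR reads per library.

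Of 30432 distinct intervals, 29021 were kept (the longest where intervals of a gene overlapped), named by RefSeq accession (GRCm38.p6, 99.18% of lines) and summed to 20867 genes. CPM was computed over 3′UTR reads. Groups came from the titles. Abundance was tested with edgeR 4.0.16 (TMM, filterByExpr, quasi-likelihood, R 4.3.3) and conversions with the log of coverage, or of coverage times the library-wide rate, as the offset, in genes with at least 100 covered T positions per library and 50 conversions in all. The genotype tests used an interaction term. Benjamini-Hochberg adjustment ran over all genes, and 0.05 was the threshold. Scripts were tested on simulated data. Library-wide values were tested by exact permutation (scipy 1.17.1). DESeq2 1.42.0 and the other alternatives are given in the closing section.

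Named genes were, in each direction, the 10 with the largest called change whose libraries did not overlap, with at least 10 CPM (abundance) or 1000 covered T positions per library (label), without predicted-gene symbols; up to 4 called genes per list; and Tut4, Tut7 and the genes the study names. Members and lists were chosen with earlier results of these data known. The heptamer search was added after seeing the data. A few genes are not reported here.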

Additional observations from a re-analysis of the deposited data

Results flagged for a closer look

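Cxcr4, the receptor for the chemokine CXCL12, differed between genotypes in label loss by the interaction test, with a log2 difference of 1.049 (SE 0.19, cDKO minus control, edgeR adjusted p = 0.0137). Its rate over the whole chase was 1.86%, 0.815%, 0.372% and 0.145% in controls and 2.25%, 1.66%, 1.57% and 1.33% in cDKO cells (means of 3 libraries at 0, 60, 180 and 540 min). At 540 min the library-wide rate of cDKO cells was 0.187%. Its abundance was 147 and 196 CPM in controls and 107 and 157 CPM in cDKO cells at 60 and 180 min.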

How the results depend on the processing

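Deviations of same-numbered control libraries correlated by only 0.018, 0.0356 and 0.0403 in abundance and 0.0106, -0.00482 and 0.0162 in relative rate. In abundance each 60 min library still correlated best with its own number, so these values do not settle whether the numbers mark pairs. With the replicate block 623 genes were called for abundance in place of 444, all 444 among them, 4501 for label loss and 2734 relative to the library. For the genotype difference in abundance change the block gave 29 calls in place of 0. Summing all lines of a gene gave 262 abundance calls (235 shared) and 0 calls for the genotype difference in label loss. Leaving out 1 library gave 222 to 350 abundance calls, 3757 to 4457 for label loss, 2051 to 2569 relative to the library, 0 for the genotype difference in abundance change and 0 to 2 for that in label loss. Cxcr4's call was lost without control library 1 or 3 at 60 min, control library 2 or 3 at 180 min, cDKO library 1 or 2 at 60 min, or cDKO library 3 at 180 min. The library-wide log2 ratio of -0.46 ran from -0.49 to -0.45 with 1 library left out (exact permutation p = 0.2, the smallest 2 against 3 can give two-sided) and was -0.69 as the median of genes. DESeq2, no filter on low counts, DESeq2 size factors, coverage of at least 1000, background subtraction and 1 fit over 12 control libraries moved no other of these counts by over 1.5 times. Centring on the median gene rate gave 2955 relative calls, 2092 shared, with the split given above. Over named genes and alternatives 225 calls were lost, in 58 genes, 7 were gained and none turned. List medians moved by more than the SD between replicates in 87 of 537 cases, by at most 0.276.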
